A study of Arabidopsis thaliana with 24 samples.

Results

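The light reactions of photosynthesis run on protein complexes of the thylakoid membrane whose subunits are encoded partly in the chloroplast and partly in the nucleus. Described here are 48 nuclear genes of Arabidopsis thaliana, taken from the 32678 loci counted in the series by a fixed list of loci. They encode the antenna of photosystem I (6 LHCA genes), the antenna of photosystem II (5 LHCB1, 3 LHCB2 and 6 LHCB3 to LHCB6 genes), 12 subunits of photosystem I, 10 of photosystem II, 4 electron carriers and 2 subunits of the ATP synthase. The rule names loci and sets no threshold on measured values, though the list was drawn up with earlier results of these data known. All 48 names matched a symbol or synonym of the reference annotation, and all 48 genes passed the filter on low counts, with 779 to 317643 counts per library. The chloroplast-encoded genes of the same complexes are listed with 0 counts throughout and were not analysed here.

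Whole rosettes of 3-week-old plants were sequenced in 24 libraries, 3 for each of 8 groups. In the ozone groups, plants of the lines C24, Te, CT101 and Col-0 received 350 ppb ozone for 2 h, and the control groups held the same 4 lines without it. C24 and Te are natural accessions that the series describes as unlike in ozone sensitivity, Col-0 is the accession of the reference genome, and the origin of CT101 and the time between exposure and sampling are not stated. All plants grew under 12 h of light and 12 h of dark. The labels of every library give 10 to 15 pooled rosettes, so p-values measure the spread between pools.

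In these complexes, antenna proteins bind chlorophyll and pass its excitation energy to the reaction centres. Photosystem II takes electrons from water, the cytochrome b6f complex and plastocyanin carry them to photosystem I, and ferredoxin receives them there. The proton gradient built on the way drives the ATP synthase. In rosette leaves the nuclear genes of this machinery are among the most highly expressed, and light, plastid signals and the circadian clock are known to regulate them.

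The libraries held 13633768 to 25789925 counts. Of the 20 most abundant genes in the controls, 13 belonged to the 48. The summed level of 3 mesophyll markers (RBCS1A, CA1 and RCA) ranged from 14114 to 28582 CPM (counts per 1e6 counts of a library, after its total was scaled by its TMM normalisation factor) in ozone libraries and from 25291 to 42116 CPM in control libraries. That of 3 epidermis markers (ATML1, PDF1 and FDH) ranged from 176 to 254 CPM under ozone and from 316 to 435 CPM in controls. Guard cell markers (FAMA, KAT1 and SLAC1) summed to 33 to 59.2 CPM under ozone and 39.3 to 57.3 CPM in controls, and phloem markers (SUC2, SULTR2;1 and APL) to 244 to 394 CPM under ozone and 315 to 481 CPM in controls. In the mean of the 4 lines all 6 mesophyll and epidermis markers, KAT1 and SULTR2;1 passed as lower under ozone, FAMA (log2 change 0.16) and APL (0.26) passed as higher, and SLAC1 (−0.01) and SUC2 (0.12) did not pass. Of 4 root markers, 3 stayed under a mean of 1 CPM in every group (PYK10 was the exception), as did the flower markers AP1, PI and AP3. The flower marker AG had 0.592, 0.606 and 0.387 CPM in Col-0 under ozone and 1.63, 2.55 and 1.70 CPM in Col-0 controls, and passed as lower in Col-0 (−1.87) and CT101 (−2.59). The senescence marker SAG12 had a median of 0 CPM in both treatments. The part of these markers in the results was not tested.

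The promoters of 4 genes are printed because the ozone response of these genes differed most or because one line differed from the others in its level. All are sequences of the Col-0 reference genome, and the promoters of C24, Te and CT101 were not examined. LHCB2.3 (AT3G27690, chr3:10255947-10257011, plus strand) had the largest fall of the 48 and PETC (AT4G03280, chr4:1440146-1441863, plus strand) the smallest. LHCB2.1 (AT2G05100, minus strand) is the close copy with which LHCB2.3 is compared, and LHCA3 (AT1G61520, chr1:22699715-22701383, plus strand) was lower in C24 controls than in the controls of the other lines. These gene coordinates are those of the deposited files (TAIR10). Each line gives the 250 bases before the gene start annotated by RefSeq (build TAIR10.1), which for LHCB2.3 and LHCB2.1 lies upstream of the start in the files, on the gene's own strand from 5′ to 3′, with matches to the searched motifs in capitals. The windows are chr3:10255656-10255905 for LHCB2.3, chr2:1824481-1824730 for LHCB2.1, chr1:22699465-22699714 for LHCA3 and chr4:1439896-1440145 for PETC.
LHCB2.3: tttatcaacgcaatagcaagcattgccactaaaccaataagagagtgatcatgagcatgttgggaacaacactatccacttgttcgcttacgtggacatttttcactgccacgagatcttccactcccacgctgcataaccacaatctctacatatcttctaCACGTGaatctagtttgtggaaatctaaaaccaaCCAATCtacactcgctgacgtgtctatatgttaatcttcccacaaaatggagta
LHCB2.1: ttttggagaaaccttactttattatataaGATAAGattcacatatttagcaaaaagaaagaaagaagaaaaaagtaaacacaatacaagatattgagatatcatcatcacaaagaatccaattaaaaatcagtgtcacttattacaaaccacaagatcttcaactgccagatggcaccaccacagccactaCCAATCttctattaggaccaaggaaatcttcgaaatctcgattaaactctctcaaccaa
LHCA3: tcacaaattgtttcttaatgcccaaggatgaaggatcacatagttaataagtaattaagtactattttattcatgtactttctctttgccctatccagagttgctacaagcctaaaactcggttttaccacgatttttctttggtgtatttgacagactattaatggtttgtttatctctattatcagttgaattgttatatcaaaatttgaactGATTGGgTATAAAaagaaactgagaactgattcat
PETC: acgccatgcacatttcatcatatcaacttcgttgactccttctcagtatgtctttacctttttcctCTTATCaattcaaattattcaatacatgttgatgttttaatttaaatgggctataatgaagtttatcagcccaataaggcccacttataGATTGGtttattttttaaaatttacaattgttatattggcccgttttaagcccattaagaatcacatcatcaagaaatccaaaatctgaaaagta

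The motifs were the G-box CACGTG, the I-box GATAAG, the CCAATC element of light-regulated promoters and the evening element AAAATATCT, each on both strands, and TATAAA on the given strand, and their matches can overlap. Distances are from the RefSeq start. In LHCB2.3 the G-box began 88 bases and CCAATC 54 bases before it. LHCB2.1 had CCAATC at a like place, 59 bases before the start, with an I-box at 221 bases and no CACGTG in this window. In LHCA3 the reverse of CCAATC began at 35 bases, next to TATAAA at 28 bases. In PETC the reverse of CCAATC lay at 95 bases and the reverse of the I-box at 184 bases.

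Over the 48 promoters, CCAATC occurred in 14 (29.2%), against 10.2% of 27443 promoters of the same length. The G-box occurred in 9 (18.8%, against 6.49% of all), in LHCA4, LHCB2.3, LHCB4.1, LHCB6, PSAE2, PSAH2, PSBQ1, PSBQ2 and ATPD. The I-box occurred in 11 (22.9%, against 12.3%), the evening element in LHCA5 and ATPC1 (4.17%, against 2.36%) and TATAAA in 15 (31.2%, against 32.9%). These are matches of letters and describe the windows without a test.

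Ozone lowered the transcripts of the light reactions in all 4 lines, and no member was higher under ozone in any of them. Of the 48 genes, 48 passed as lower in CT101, 48 in Te, 43 in Col-0 and 30 in C24. Over all 20554 genes tested, 32.4% passed as lower in CT101, 30.9% in Te, 26.9% in Col-0 and 22.2% in C24. Calls and adjusted p-values of single genes come from the quasi-likelihood test of edgeR, adjusted over all genes tested by the Benjamini-Hochberg method with a threshold of 0.05. The median log2 fold change of the 48 was −1.13 in CT101, −0.78 in Te, −0.63 in Col-0 and −0.47 in C24, where the median of all genes lay between −0.03 and −0.01. In whole rosettes, fewer mesophyll cells and less RNA per cell cannot be told apart.

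The 48 genes took 10.59% ± 2.27 of all counts in C24 under ozone and 15.71% ± 1.74 in C24 controls (mean ± SD, n = 3 each). In Te the share was 9.93% ± 1.44 under ozone and 18.83% ± 1.43 in controls. In CT101 it was 7.66% ± 1.58 under ozone and 17.98% ± 1.69 in controls, and in Col-0 10.54% ± 1.82 under ozone and 17.64% ± 1.2 in controls. The ozone and control libraries did not overlap in any line. As a percentage of the control mean, the summed level of the 48 under ozone was 45.4% in CT101, 57.8% in Te, 65.4% in Col-0 and 72.2% in C24.

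**Figure D1:**
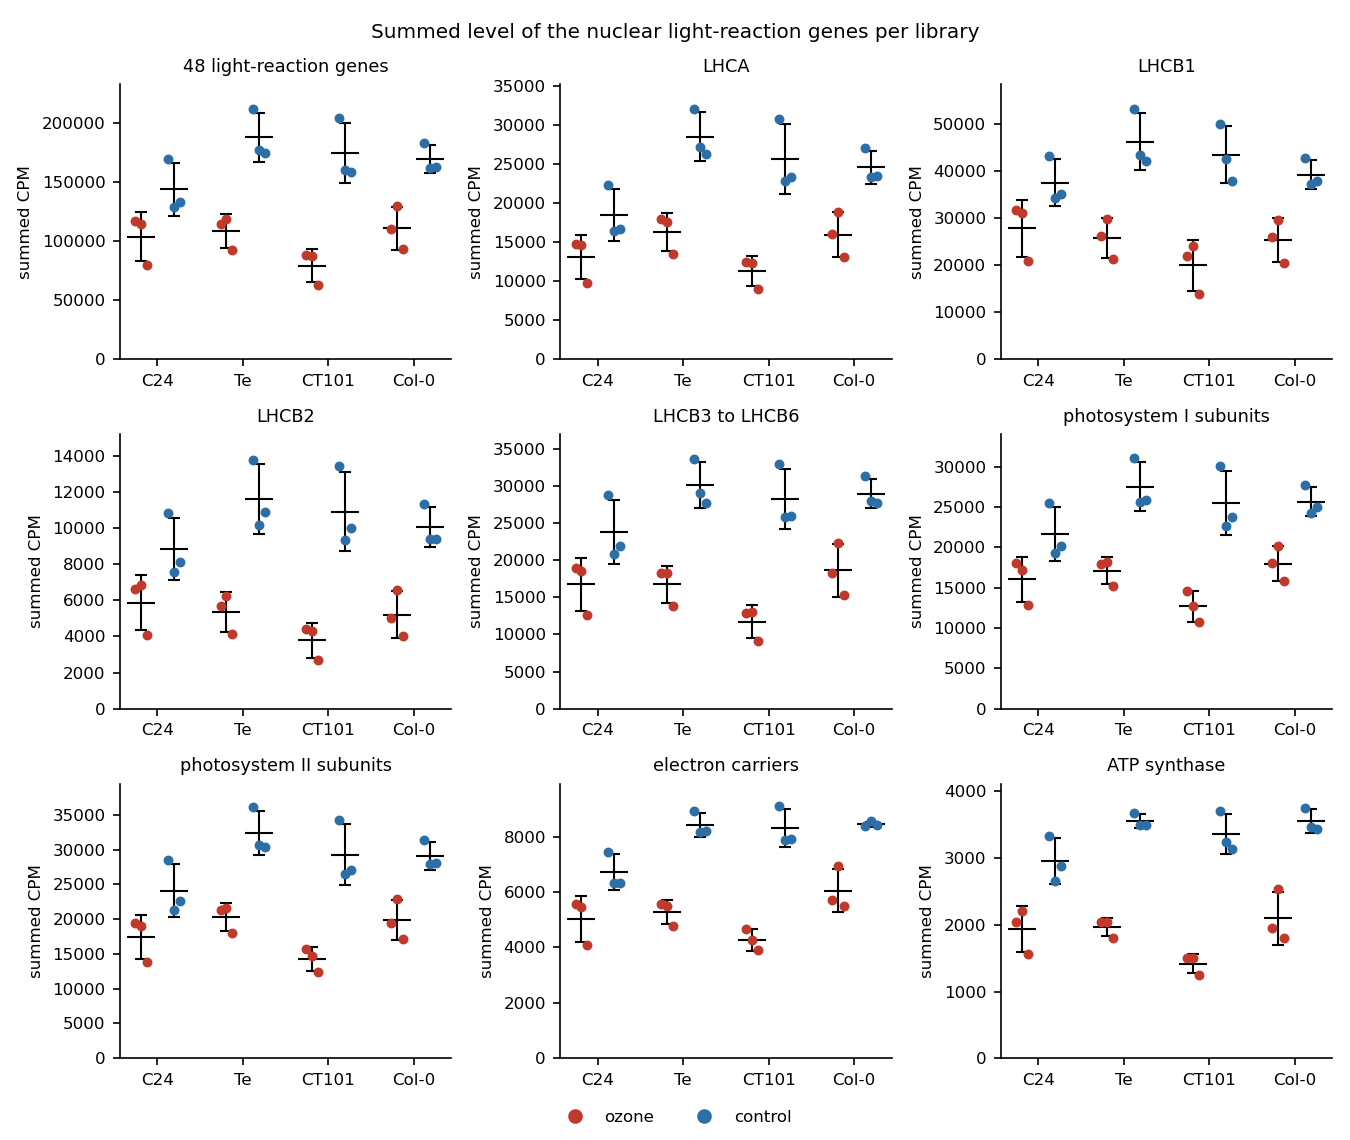
Summed level in CPM (vertical axis, from 0) of the 48 genes and of their 8 role groups in each library, by line (horizontal axis). Points are libraries (red ozone, blue control, replicates 1 to 3 from left to right), bars the mean ± SD (n = 3). Every ozone group has a lower mean than the control group of its line, and the summed level of the 3 LHCB2 genes in CT101 under ozone is 34.7% of its control mean.

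Libraries of the same number held the extremes of the summed level in all 4 lines. Of the ozone libraries, replicate 3 had the lowest summed level in every line, at 62927 CPM in CT101, 92505 in Te, 93007 in Col-0 and 79788 in C24. Of the control libraries, replicate 1 had the highest, at 204306 CPM in CT101, 212365 in Te, 183541 in Col-0 and 169851 in C24. Ozone replicate 2 was the highest of the ozone libraries for 16 members in CT101, 32 in Te, 46 in Col-0 and 17 in C24. Without replicate 2 of every group, 48 members passed as lower in CT101, 44 in Te, 45 in Col-0 and 32 in C24.

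All ozone libraries lay below all control libraries for 48 of the 48 genes in CT101, 48 in Te, 47 in Col-0 and 41 in C24. Over all genes tested this held for 33.4% in CT101, 33.4% in Te, 31.0% in Col-0 and 25.5% in C24. The fold change was below 0 for all 48 in every line. CT101 had the largest fall of the 4 lines for 48 genes, and C24 the smallest for 42 and Col-0 for 6.

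The count in C24 rested on single libraries. It was 5 without C24 control replicate 1 and 5 without C24 ozone replicate 3, and 7 when the C24 libraries were fitted alone. With the replicate number as a block, an effect shared by all lines and treatments, it was 47. With library totals in place of TMM factors it was 46. In Col-0 it was 23 without ozone replicate 3.

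**Figure D2:**
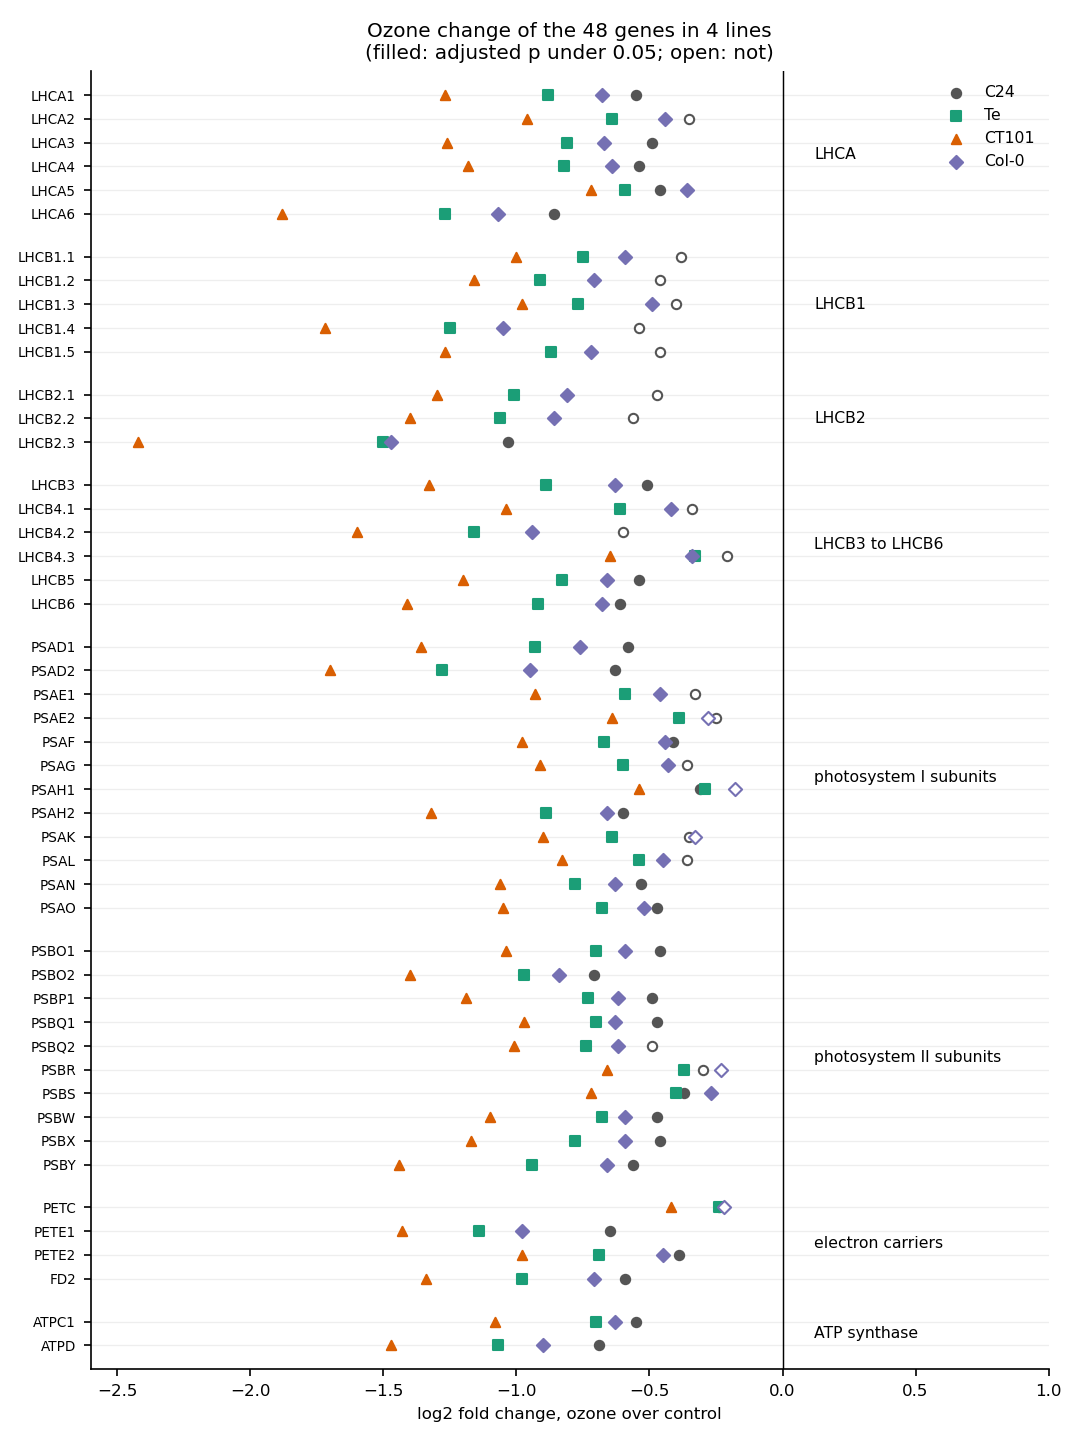
Log2 fold change, ozone over control (horizontal axis), of each of the 48 genes (vertical axis, in role groups) in C24, Te, CT101 and Col-0. Filled symbols passed at an adjusted p under 0.05 and open symbols did not; all 48 genes lie below 0 in every line, and the CT101 symbol is farthest from 0 for each.

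The antenna of photosystem II holds the most abundant transcripts. Per kb of exon, LHCB1.3 led the 48 in the controls with a mean of 10077 CPM per kb (8807 to 10827 over the 4 lines), ahead of LHCB1.2 with 7917 CPM per kb. The lowest were LHCB4.3 with 162, LHCA6 with 164, LHCA5 with 174 and PETE1 with 251 CPM per kb. Exon lengths are those of RefSeq, and for some genes, among them LHCB1.3 and PETE1, they exceed the locus counted in the files. The order of genes with close values is therefore uncertain. LHCB1 and LHCB2 proteins form the trimers of the main light-harvesting complex, LHCB3 joins these trimers, and LHCB4, LHCB5 and LHCB6 are the monomeric antenna proteins between them and the core.

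In the mean of the 4 lines, the 5 LHCB1 genes all passed as lower, with a median log2 change of −0.81. In this contrast all 48 members passed as lower, as did 39.3% of all genes tested. In C24 none of the 5 passed the test (adjusted p of LHCB1.3 0.085 and of LHCB1.4 0.18), with changes from −0.54 to −0.38, though all 5 passed in the other 3 lines. With the replicate number as a block, all 5 passed in C24 as well, among them LHCB1.2 (adjusted p = 0.006), LHCB1.3 (adjusted p = 0.0081) and LHCB1.4 (adjusted p = 0.022). LHCB1.3 had 7077, 7575 and 4537 CPM in CT101 under ozone and 14109, 12728 and 10968 CPM in CT101 controls, which do not overlap. LHCB1.4 changed most of the 5, by −1.14 ± 0.17 (SE, adjusted p = 2.4e-06) in the mean of the lines. Some exon windows of 50 bases in the LHCB1 genes occur more than once in the genome, 10.6% of those of LHCB1.2, 13.7% of LHCB1.4, 17% of LHCB1.3, 17.3% of LHCB1.5 and 20.5% of LHCB1.1. How reads from such windows were counted is not stated, so the split among these copies is uncertain, as it is for LHCB2.1 (23.5%), LHCB2.2 (29.5%) and LHCA2 (11.4%), while the other 40 members had 0 repeated windows.

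LHCB2.3 had the largest fall of the 48 genes. It had 987, 819 and 404 CPM in C24 under ozone and 2076, 1143 and 1310 CPM in C24 controls. In CT101 it had 539, 513 and 285 CPM under ozone and 3201, 1953 and 2008 CPM in controls. The groups did not overlap in either line, and in CT101 the highest ozone library lay far below the lowest control. Its log2 change was −1.03 ± 0.35 in C24 (adjusted p = 0.021), −1.50 ± 0.36 in Te (adjusted p = 0.0011), −2.42 ± 0.37 in CT101 (adjusted p = 8.6e-06) and −1.47 ± 0.36 in Col-0 (adjusted p = 0.0015). The level in CT101 under ozone was thus 18.7% of that in its controls. LHCB2.1 and LHCB2.2, the other copies, changed by −0.90 and −0.97 in the mean of the lines and did not pass in C24 (adjusted p = 0.079 and 0.051), but did with the replicate block (adjusted p = 0.018 and 0.0042). The call of LHCB2.3 in C24 was lost without C24 control replicate 1 or C24 ozone replicate 3 and when the C24 libraries were fitted alone.

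Among LHCB3 to LHCB6, all 6 genes passed in the mean of the lines, with a median of −0.82. LHCB3, the most abundant, changed by −0.84 ± 0.10. The 3 copies of LHCB4 spread widely: LHCB4.2 changed by −1.08 ± 0.14 (adjusted p = 3.2e-07) and LHCB4.3 by −0.38 ± 0.06 (adjusted p = 6.4e-06). In C24 LHCB4.3 had 186, 171 and 142 CPM under ozone and 222, 166 and 191 CPM in controls, groups that overlap, and it did not pass (adjusted p = 0.15).

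In the antenna of photosystem I, LHCA1 to LHCA4 form the belt around the core, while LHCA5 and LHCA6 are minor members that link photosystem I to the NDH complex of cyclic electron flow. LHCA6 changed most, by −1.27 ± 0.11 in the mean of the lines (adjusted p = 1.2e-09), and LHCA5 least, by −0.53 ± 0.05 (adjusted p = 1.5e-08). LHCA6 had 64.8, 66.5 and 48.1 CPM in CT101 under ozone and 262, 206 and 190 CPM in CT101 controls. LHCA5 had 116, 117 and 119 CPM in CT101 under ozone and 207, 195 and 178 CPM in CT101 controls. Neither gene's groups overlapped, and the ozone libraries of LHCA5 were nearly equal. LHCA4, the most abundant member, changed by −0.79 ± 0.10.

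Of the 12 photosystem I subunits, all passed as lower in the mean of the lines, with a median of −0.60. PSAD and PSAE form the ferredoxin docking site, PSAF helps to dock plastocyanin, PSAG and PSAK lie beside the antenna, and PSAH, PSAL and PSAO take part in docking the mobile antenna of photosystem II. PSAD2 changed most, by −1.14 ± 0.12 (adjusted p = 2.9e-08), and PSAH1 least, by −0.33 ± 0.06 (adjusted p = 1.4e-05). PSAH1 had 593, 655 and 576 CPM in Col-0 under ozone and 694, 681 and 693 CPM in Col-0 controls, and with a change of −0.18 it did not pass there (adjusted p = 0.17). PSAE2 and PSAK also failed in Col-0. PSAL, the most abundant, changed by −0.54 ± 0.08.

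All 10 photosystem II subunits passed in the mean of the lines, with a median of −0.71. PSBO, PSBP and PSBQ shield the oxygen-evolving cluster on the lumen side, PSBR is needed for their stable binding, PSBW, PSBX and PSBY are small membrane proteins, and PSBS senses lumen acidity and starts the dissipation of excess energy as heat. PSBO2 changed by −0.98 ± 0.10 (adjusted p = 1.2e-08) and its copy PSBO1, the most abundant of the 10, by −0.70 ± 0.08 (adjusted p = 1.4e-07). PSBR had the smallest change, −0.39 ± 0.08 (adjusted p = 1.6e-04). It did not pass in C24 (−0.30) or Col-0 (−0.23), and 9 of 16 alternatives ended its call in Te (−0.37). PSBR overlaps another locus on the opposite strand. PSBS, at −0.44 ± 0.06, had 1548, 1620 and 1480 CPM in CT101 under ozone and 2675, 2567 and 2409 CPM in CT101 controls, which do not overlap.

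The 4 carriers all passed in the mean of the lines, with a median of −0.76, but over a wide range. PETC, the Rieske iron-sulfur protein of the cytochrome b6f complex, changed by only −0.28 ± 0.05 (adjusted p = 1.5e-05), the smallest fall of the 48. It had 1399, 1439 and 1392 CPM in Te under ozone and 1648, 1659 and 1674 CPM in Te controls, so the groups lay apart with little spread. In Col-0, with −0.22, it did not pass (adjusted p = 0.051). Of 16 alternatives, 9 ended the call of PETC in Te, among them omission of any single Te library. In C24, 8 of 16 ended its call, and in Col-0, 7 of 16 gave one. PETE1, the minor plastocyanin gene, changed by −1.05 ± 0.08 (adjusted p = 6.1e-11), PETE2, the major one, by −0.62 ± 0.07, and the leaf ferredoxin FD2 by −0.90. Of the ATP synthase, ATPD (delta subunit) changed by −1.03 ± 0.08 and ATPC1 (gamma subunit) by −0.74 ± 0.07, and both passed in every line.

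Where a subunit has several genes, the copies did not change alike. The log2 ratio of 10 pairs was compared between ozone and control by an exact 2-sided permutation test that exchanged libraries within each line (160000 permutations, Benjamini-Hochberg adjustment over the 10 pairs), and 9 pairs passed. LHCB2.3 made up 20.5% ± 1.6 of the counts of LHCB2.3 and LHCB2.1 in CT101 under ozone and 35.9% ± 2.9 in CT101 controls (SD, n = 3 each). In the mean of the lines this ratio changed by −0.72 (adjusted p = 3.1e-05), though part of the sequence of LHCB2.1 is shared with LHCB2.2. LHCB4.2 against LHCB4.1 changed by −0.51 (adjusted p = 4.2e-05), PETE1 against PETE2 by −0.43 (adjusted p = 3.1e-05), PSBO2 against PSBO1 by −0.29 (adjusted p = 3.1e-05) and PSAD2 against PSAD1 by −0.24 (adjusted p = 3.2e-04). LHCB1.4 against LHCB1.5, which share sequence, changed by −0.32 (adjusted p = 4.2e-05). The unadjusted p of 4 pairs was 1.3e-05, the smallest that these permutations can give.

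In 3 pairs the less abundant copy gained share. PSAH1 made up 45.2% ± 2.8 of the PSAH counts in CT101 under ozone and 32.4% ± 1.2 in CT101 controls, and in the mean of the lines its ratio to PSAH2 changed by 0.54 (adjusted p = 3.1e-05). PSAE2 against PSAE1 changed by 0.18 (adjusted p = 0.0018) and LHCB4.3 against LHCB4.1 by 0.22 (adjusted p = 0.003). PSAH1, PSAE2, LHCB4.2 and LHCB1.5 each overlap another locus, and whether counting used the strand is not stated. PSBQ1 held 48.3% ± 3.4 of the PSBQ counts in CT101 under ozone and 47.8% ± 5.3 in CT101 controls, and its ratio to PSBQ2 changed by 0.01 (adjusted p = 0.84). The 9 pairs that passed had the same direction in 4 of 4 lines and PSBQ1 in 3 of 4.

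**Figure D3:**
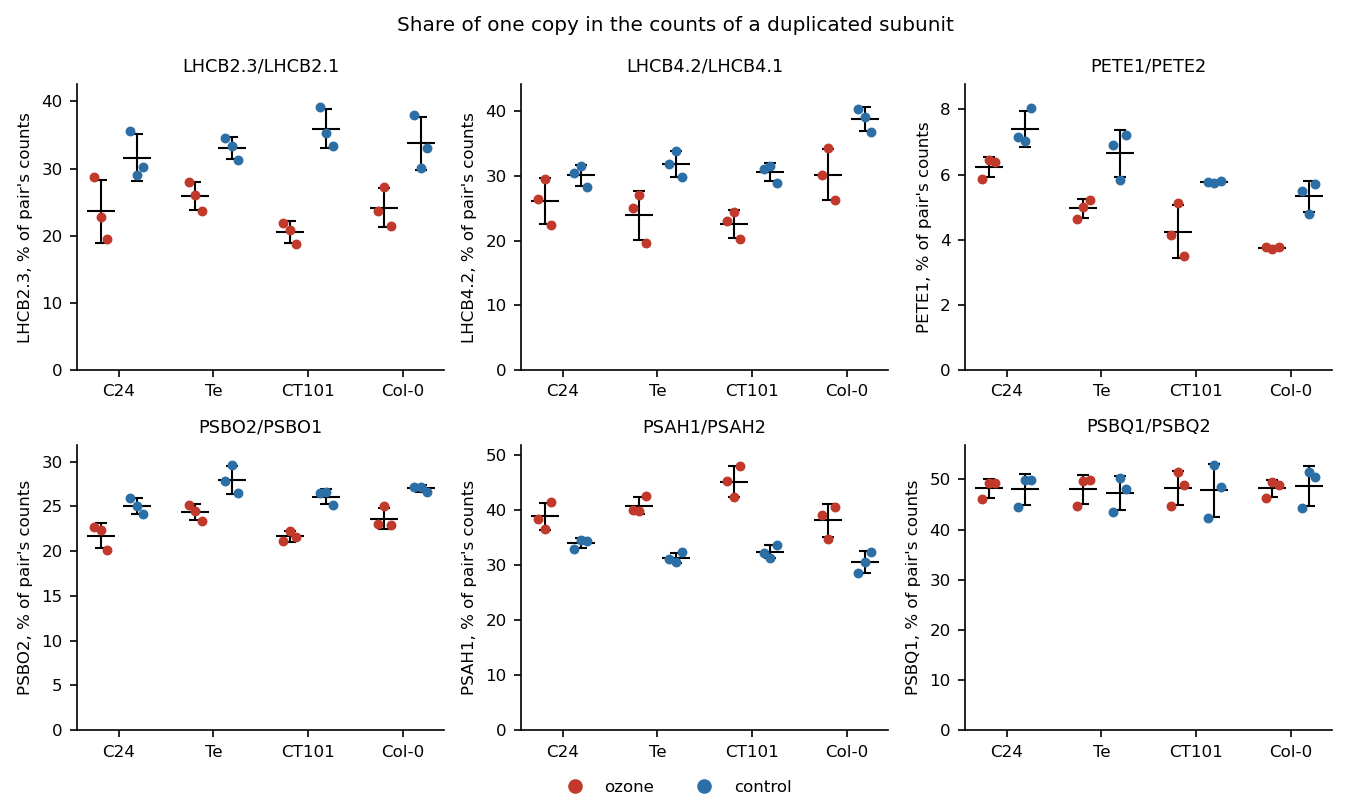
Share of the first-named copy in the counts of 6 pairs of genes for the same subunit or antenna protein (vertical axis, percent, from 0), by line (horizontal axis); points are libraries (red ozone, blue control), bars the mean ± SD (n = 3). The shares of LHCB2.3, LHCB4.2, PETE1 and PSBO2 have lower means under ozone in every line, that of PSAH1 higher means, and that of PSBQ1 stays near 48.3% in CT101 under ozone and 47.8% in its controls.

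Between the untreated lines, the question was whether accessions of unlike ozone sensitivity start from different levels. Against C24 controls, 11 of the 48 genes were higher in Te controls, 4 in CT101 controls and 5 in Col-0 controls, and none was lower. These 3 comparisons share the C24 controls. Of all genes tested, 12.4% passed as higher in Te, 11.7% in Col-0 and 6.18% in CT101. As a share of the 48, the Col-0 count lay below that of all genes and the CT101 count only slightly above it. The share of all genes that passed as lower is not given here. The median log2 difference of the 48 was 0.38 for Te, 0.25 for CT101 and 0.26 for Col-0 against C24. With the replicate number as a block shared by all lines and treatments, 27 members passed in Te, 17 in Col-0 and 10 in CT101. With a block within each treatment, 41 passed in Te, 35 in Col-0 and 35 in CT101. Without replicate 2 of every group, 3 passed in Te, 2 in Col-0 and 2 in CT101, and with library totals in place of TMM factors 5 in Te, 2 in Col-0 and 2 in CT101. The Te count was 19 without C24 control replicate 1, and 5 without C24 control replicate 2, C24 control replicate 3 or Te control replicate 1. The CT101 count was 2 without C24 control replicate 2, C24 control replicate 3 or CT101 control replicate 1, and the Col-0 count ranged from 2 to 8 over its 6 libraries.

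LHCA3 stood apart in all 3 comparisons. It had 7114, 5765 and 5763 CPM in Te controls, 7227, 5157 and 5541 CPM in CT101 controls and 6204, 5440 and 5389 CPM in Col-0 controls, against 3582, 2619 and 2650 CPM in C24 controls. Every control library of the other 3 lines lay above every C24 control library. The log2 difference from C24 was 1.07 ± 0.19 in Te (adjusted p = 2.1e-04), 1.02 ± 0.19 in CT101 (adjusted p = 6.7e-04) and 0.94 ± 0.19 in Col-0 (adjusted p = 8.1e-04), and it passed under every alternative setting in all 3. Under ozone LHCA3 averaged 3564 ± 658 CPM in Col-0, 3533 ± 504 in Te and 2498 ± 420 in CT101, against 2102 ± 422 CPM in C24. The ozone libraries of CT101 (2814, 2660 and 2021 CPM) overlap those of C24 (2394, 2294 and 1618 CPM).

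LHCA5, a minor antenna protein, had 232, 240 and 219 CPM in Te controls, 207, 195 and 178 CPM in CT101 controls and 202, 188 and 176 CPM in Col-0 controls, against 150, 121 and 133 CPM in C24 controls. None of these groups overlapped with C24. The difference from C24 was 0.77 ± 0.11 in Te (adjusted p = 1.5e-05), 0.52 ± 0.11 in CT101 (adjusted p = 0.0019) and 0.48 ± 0.11 in Col-0 (adjusted p = 0.002), and these calls too held under every alternative. LHCA5 overlaps another locus on the opposite strand.

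PSBS was higher than in C24 in the same 3 lines, by 0.51 ± 0.11 in Te (adjusted p = 0.0016), 0.40 ± 0.11 in CT101 (adjusted p = 0.016) and 0.35 ± 0.11 in Col-0 (adjusted p = 0.023). The last 2 calls were lost with library totals alone and without C24 control replicate 2 or 3, that in CT101 also without CT101 control replicate 1 and that in Col-0 without Col-0 control replicate 2 or 3. FD2 was higher in Te (0.62) and in Col-0 (0.53), LHCB4.3 in Te (0.50) and in CT101 (0.39), and PETC in Te (0.38) and in Col-0 (0.30). Of 16 alternatives, 5 ended the call of FD2 in Te and 8 that in Col-0, 1 that of LHCB4.3 in Te and 8 that in CT101, and 2 that of PETC in Te and 7 that in Col-0. Omission of C24 control replicate 2 or C24 control replicate 3 was among them for FD2 in both lines, LHCB4.3 in CT101 and PETC in Col-0. So was that of Te control replicate 1 or 3 for FD2 in Te, any Col-0 control for FD2 in Col-0, any CT101 control for LHCB4.3 in CT101, and Col-0 control replicate 1 or 2 for PETC in Col-0. PSBO2, LHCA4, LHCA2, PSBQ1 and PSBR were higher in Te, by 0.45 to 0.59, and each of these 5 calls was lost without C24 control replicate 2, without C24 control replicate 3 and without Te control replicate 1.

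**Figure D4:**
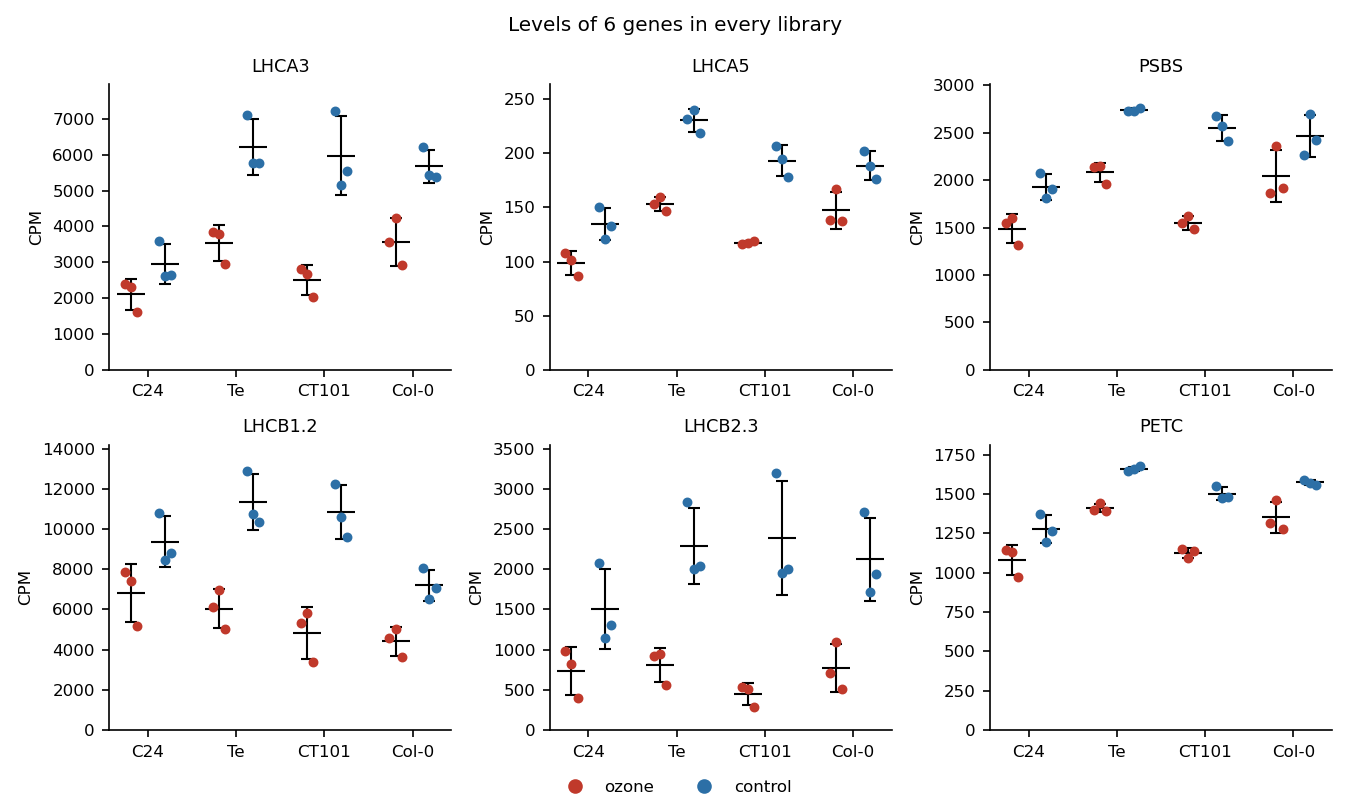
Level in CPM (vertical axis, from 0) of LHCA3, LHCA5, PSBS, LHCB1.2, LHCB2.3 and PETC in each library, by line (horizontal axis). Points are libraries (red ozone, blue control), bars the mean ± SD (n = 3); the C24 controls of LHCA3, at 2619 to 3582 CPM, lie below all other controls, and the Col-0 controls of LHCB1.2 average 7209 CPM.

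The other 3 lines differed less from each other. Between CT101 and Te controls 0 of the 48 genes passed (1 at an unadjusted p under 0.05, 0 in DESeq2), where 5.23% of all genes did. Between CT101 and Col-0 controls 0 passed (1 unadjusted, 1 in DESeq2), where 15.7% of all genes did. Between Te and Col-0 controls 1 passed, where 15.8% of all genes did in either direction. The block within each treatment gave 2 for CT101 against Te, 2 for CT101 against Col-0 and 12 for Te against Col-0. That gene was LHCB1.2, with 12906, 10756 and 10324 CPM in Te controls and 8040, 6521 and 7065 CPM in Col-0 controls, which do not overlap. Its difference of 0.65 ± 0.20 (adjusted p = 0.029) was lost when near-identical copies were summed, and without Te control replicate 1 or 2 or Col-0 control replicate 2 or 3. In CT101 controls LHCB1.2 was 0.59 above Col-0 (adjusted p = 0.051).

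Whether the ozone response differed between lines was tested as the difference of the log2 changes. In CT101 the fall was larger than in C24 for 4 of the 48 genes, LHCA6, PSBY, PETE1 and ATPD, where 2.61% of all genes passed in that direction. LHCA6 fell to 27.2% of its controls in CT101 and to 55.1% in C24, a difference of −1.02 ± 0.31 (adjusted p = 0.044). PSBY had 550, 549 and 403 CPM in CT101 under ozone and 1564, 1259 and 1242 CPM in CT101 controls, against 815, 884 and 579 CPM in C24 under ozone and 1298, 989 and 1072 CPM in C24 controls. The ozone and control groups lay apart in both lines, and the difference of the changes was −0.88 ± 0.25 (adjusted p = 0.034).

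PETE1 and ATPD each differed by −0.78 (adjusted p = 0.027 and 0.041). The median difference of the 48 was −0.65 and all 48 were below 0, with 41 at an unadjusted p under 0.05. For response differences, shares of all genes below 0 or at this unadjusted threshold are not given here. Such counts, here and below, are thus not shown to be particular to the 48. With the replicate number as a block shared by all lines and treatments, 42 of the 48 passed, and DESeq2 called 14. The count was 0 without replicate 2 of every group and when the C24 and CT101 libraries were fitted alone. It was also 0 without C24 control replicate 2, C24 ozone replicate 1 or 2, CT101 control replicate 1 or CT101 ozone replicate 3. It was 1 or 2 without C24 control replicate 3, CT101 control replicate 2 or 3 or CT101 ozone replicate 1, 9 without C24 control replicate 1 and 30 without C24 ozone replicate 3.

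No member passed for Te against C24 (1 at an unadjusted p under 0.05, 0 in DESeq2), where 9.58% of all genes passed in either direction. The 3 smallest adjusted p-values were those of PETE1 (−0.48 ± 0.21, adjusted p = 0.17), PSAD2 (−0.66 ± 0.34, adjusted p = 0.27) and LHCB2.1 (−0.54 ± 0.31, adjusted p = 0.32). The median difference was −0.29, with 46 of the 48 below 0. Col-0 against C24 (0 unadjusted), CT101 against Te (0) and Te against Col-0 (0) gave no call either, in edgeR or in DESeq2, where 3.37%, 0.321% and 0.954% of all genes passed in either direction. For CT101 against Col-0 there were 0 calls by either tool, where 1.60% of all genes passed by adjusted p in edgeR. There, 26 members had an unadjusted p under 0.05, and the median was −0.54. PSBY was nearest, with −0.77 ± 0.25 (adjusted p = 0.15). These counts depended on the replicate block. The share of all genes that passed with a block is not given here, so these shifts are not shown to be particular to the 48. A block within each treatment gave 19 for Te against C24, 3 for Col-0 against C24, 7 for CT101 against Te, 45 for CT101 against Col-0 and 0 for Te against Col-0, and a block over both treatments 7 for CT101 against Col-0 and 0 for the other 4.

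Around these complexes, 95 other nuclear genes of the thylakoid were counted in 6 lists. In the mean of the 4 lines, where 39.3% of all genes passed as lower, all 23 further electron transport genes did, with a median of −0.59. Examples are FDC1, a minor ferredoxin (−1.39 ± 0.11), PSB27, an assembly factor of photosystem II (−1.03 ± 0.09), and PSB28 (−0.57 ± 0.05). All 17 genes of the NDH complex of cyclic electron flow passed as lower too, with a median of −0.89, among them its subunits PNSL3 (−1.31 ± 0.11), PNSB3 (−1.13 ± 0.08) and PNSB2 (−0.94 ± 0.07). All 7 genes of thylakoid regulation passed as lower (median −0.74), including the xanthophyll cycle enzymes ZEP (−1.33 ± 0.14) and VDE1 (−1.33 ± 0.14) and the kinase STN8 (−1.05 ± 0.09), which phosphorylates photosystem II core proteins.

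Of 23 assembly and repair factors 22 passed as lower (median −0.63), against the same 39.3% of all genes. PYG7, an assembly factor of photosystem I, changed by −0.78 ± 0.06, the thylakoid protease DEG5 by −0.69 ± 0.06 and HCF244, needed for making the D1 reaction centre protein, by −0.64 ± 0.06. LPA1, the exception, changed by −0.05 ± 0.05 (adjusted p = 0.3). Of 8 LHC-like proteins of light stress, 6 passed as lower, including OHP1 (−0.81 ± 0.09), LIL3.1 (−0.87 ± 0.09) and LIL3.2 (−0.61 ± 0.06). ELIP2, an early light-induced protein, passed as higher, by 0.52 ± 0.19 (adjusted p = 0.017), a call lost with library totals in place of TMM factors, and ELIP1 did not pass (0.05, adjusted p = 0.64). ELIP2 had 30.5, 11.6 and 23.2 CPM in CT101 under ozone and 14.2, 13.5 and 18.1 CPM in CT101 controls, which overlap, and it passed in none of the 4 lines by itself.

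Of 17 nuclear regulators and sigma factors, 15 passed as lower and 2 as higher, where 39.3% of all genes passed as lower and 37.6% as higher. SIG6, a sigma factor of the plastid RNA polymerase, changed by −1.27 ± 0.09 and GNC, a GATA factor that promotes greening, by −1.93 ± 0.14. HYH, the close homologue of the light-signalling factor HY5, had 105, 46.3 and 94.1 CPM in CT101 under ozone and 13.7, 17.5 and 16.3 CPM in CT101 controls. PIF3, a phytochrome-interacting factor that represses greening in the dark, had 14.8, 22.4 and 13.6 CPM in CT101 under ozone and 8.93, 7.58 and 7.73 CPM in CT101 controls. The groups of neither gene overlapped. HYH rose by 1.82 ± 0.13 (adjusted p = 1.1e-10) and PIF3 by 0.79 ± 0.09 (adjusted p = 3.8e-08) in the mean of the lines, and both passed in each line.

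**Figure D5:**
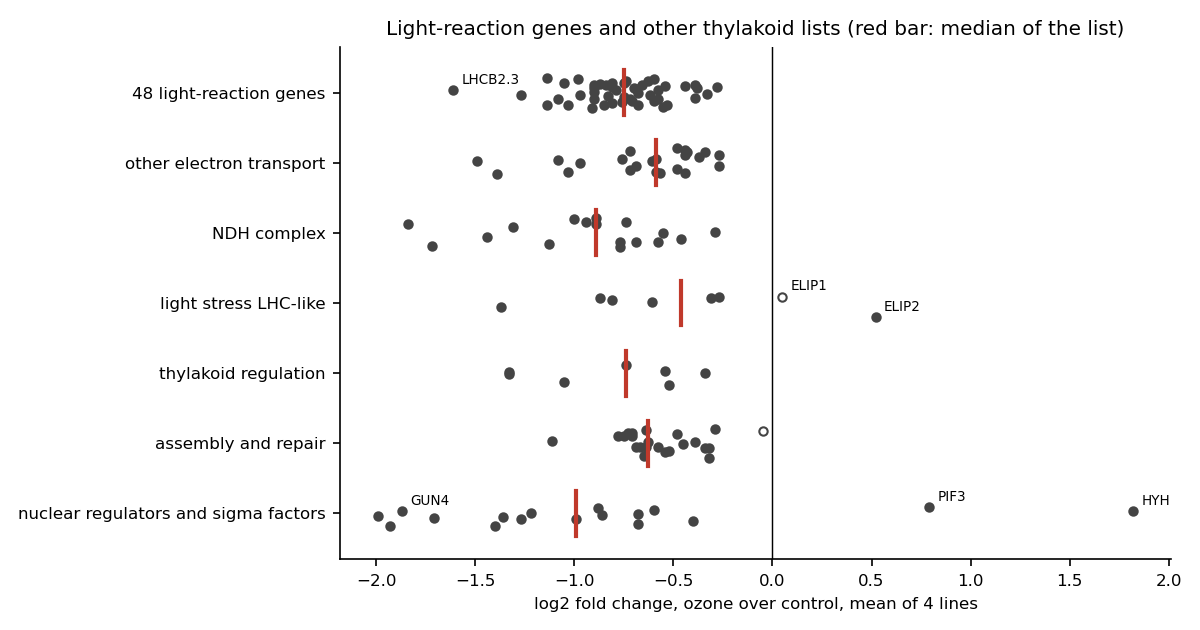
Log2 fold change, ozone over control, in the mean of the 4 lines (horizontal axis) for the 48 genes and 6 other lists of thylakoid genes (vertical axis). Points are genes (filled where the adjusted p was under 0.05), red bars the median of a list; the median of the 48 is −0.75, and HYH, PIF3 and ELIP2 are the filled points above 0.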

How the data were processed

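RNA of whole rosettes was sequenced in 24 libraries after TruSeq RNA v2 preparation from 100 ng of total RNA, per the labels. The deposited tables, 1 per library, hold read counts for each locus, which the authors made with FastQC, Bowtie2, SAMtools and HTSeq on TAIR10, per the submitters' processing notes; versions, strand setting and the treatment of reads with several matches are not given in the sources used here. TAIR10, built from Col-0, is the only build named, and sequence differences of the other lines from it were not examined. No 2 libraries held identical values.

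Counts were fitted in R 4.3.3 with edgeR 4.0.16 (limma 3.58.1) by the robust quasi-likelihood test: filterByExpr (minimum count 10, minimum total 15), TMM factors, 1 mean per group over all 24 libraries, 2-sided contrasts and Benjamini-Hochberg adjustment over 20554 genes. The code was tested on simulated counts. CPM are scaled by TMM factors. The standard error (SE) of a log2 change was derived from the test, as its absolute value divided by the square root of the F statistic. Tables and figures were made in Python 3.11.15 with matplotlib 3.10.9.

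The 48 members and the other lists were chosen with earlier results of these data known. Printed with values are, per role group, the most abundant member and those with the largest and smallest ozone change; the 3 members with the smallest adjusted p per line difference; and the 3 genes with the smallest adjusted p of each other list with those called against its direction. Others were named after their values were seen.

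Residuals of equally numbered libraries were correlated. With a minimum of 0.1 in every pair, the numbers pair ozone and control in C24 (lowest 0.1032) and CT101 (0.1848), not in Te (0.0479) or Col-0 (0.0501). They pair the controls of the lines (0.2421 to 0.3393) except CT101 with Col-0 (0.0374). Only replicate 2 fell short in Te and Col-0, and only replicate 3 for CT101 with Col-0. Replicates 1 and 3 gave 0.227 and 0.1884 in Te and 0.263 and 0.1034 in Col-0. For CT101 with Col-0 controls, replicates 1 and 2 gave 0.578 and 0.4038. A failed minimum thus does not show that the libraries were unpaired, and the main fit has no replicate term. Alternatives were RLE factors, library totals, TMM without the 48 members, no filter, 2 replicate blocks, DESeq2 1.42.0, a fit of the compared libraries alone, summed near-identical LHCB copies and omission of libraries. The replicate block gave each number an effect shared by all lines and treatments, and the block within each treatment an effect shared by all lines. Neither pairs the libraries of single lines separately. File coordinates were set against RefSeq TAIR10.1: all 27998 loci found overlapped on the same strand, and 50.2% shared a start or end.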

Additional observations from a re-analysis of the deposited data

Results flagged for a closer look

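The ozone change of 4 members differed between 2 lines by the test of the difference itself. In CT101 against C24 the difference of log2 changes was −1.02 for LHCA6, −0.88 for PSBY, −0.78 for PETE1 and −0.78 for ATPD (edgeR quasi-likelihood test, adjusted p from 0.027 to 0.044, with all ozone libraries below all control libraries in both lines for each). Of 22 alternatives, 12 ended the call of LHCA6, 12 that of ATPD, 8 that of PSBY and 7 that of PETE1.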

How the results depend on the processing

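Counts of members called are given throughout. The ozone counts of Te, CT101 and the mean of the lines stayed within 1.5 times under every alternative, and so did that of Col-0 except without Col-0 ozone replicate 3. Omission of single libraries gave 5 to 30 for ozone in C24, 43 to 47 in Te, 48 in CT101 and 23 to 44 in Col-0. For controls it gave 5 to 19 for Te against C24, 2 to 5 for CT101 against C24, 2 to 8 for Col-0 against C24 and 0 to 1 for Te against Col-0. For the response of CT101 against C24 it gave 0 to 30. Library totals alone gave 46 (C24 ozone) and 5, 2 and 2 (Te, CT101 and Col-0 controls against C24). TMM factors without the 48 members gave 2 (Te against Col-0 controls) and 1 (CT101 against Col-0 controls). Compared libraries alone gave 7 (C24 ozone), 17 and 9 (Te and Col-0 controls against C24), 3 (Te against Col-0 controls), 1 (CT101 against Col-0 controls) and 0 (response, CT101 against C24). DESeq2 gave 17, 3 and 1 for the controls of Te against C24, Te against Col-0 and CT101 against Col-0, and 14 for the response of CT101 against C24. No filter gave 2 for that response, and summed LHCB copies gave 0 for Te against Col-0 controls. Without replicate 2 of every group, the control counts against C24 were 3 (Te), 2 (CT101) and 2 (Col-0), and 0 remained for Te against Col-0 controls and for the response of CT101 against C24.

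With the replicate block the counts were 47 for ozone in C24, 48 in Te and 46 in Col-0. For controls the block gave 27, 10 and 17 for Te, CT101 and Col-0 against C24, 3 for Te against Col-0 and 1 for CT101 against Col-0, and for the responses of CT101 42 against C24 and 7 against Col-0. A block within each treatment gave 47 for ozone in C24; 41, 35 and 35 for Te, CT101 and Col-0 controls against C24; and 12, 2 and 2 for Te against Col-0, CT101 against Te and CT101 against Col-0 controls. For the responses it gave 19 for Te against C24, 45 for CT101 against C24, 3 for Col-0 against C24, 7 for CT101 against Te and 45 for CT101 against Col-0. The cause of these shifts was not tested. Shares of all genes under these settings are not given here, so the counts do not show whether a shift is particular to the 48.

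Of 4781 settings of single genes and pairs, 4457 kept the outcome of the main fit, 246 lost a call, 78 gained one and 0 reversed. The 4457 include genes and pairs that passed in neither the main fit nor the alternative. The pair ratios were also recomputed without each library and without replicate 2 of every group, alternatives chosen after seeing the data, and no pair changed its call. With 3 libraries per group, a response difference had a standard error of up to 0.49 among the genes named (LHCB2.3). Differences well above that size could also fail to pass. LHCB2.3 changed by −2.42 in CT101 and by −1.03 in C24, and this difference was not called. The difference of PSBY between CT101 and Col-0, −0.77, was not called either. A missing call therefore does not show that 2 lines responded alike.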
